A study of Homo sapiens with 10 samples.

Results

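The mitosis and spindle genes are 35 genes whose proteins drive entry into mitosis, build the spindle, attach chromosomes to it and divide the cell. They were listed by gene symbol under a rule that uses no measured value, although earlier results of these data were known when they were chosen, and all 35 were present among the 28281 symbols of both count tables. Messenger RNA was measured in 10 libraries of A549 and NCI-H1944 cells (the second written H1944), 2 lines grown from human lung adenocarcinomas. The A549 groups were cells with APEX1 knocked out (KO, 3 libraries) and cells labelled wild type (WT, 3 libraries). The H1944 groups were KO cells (2 libraries) and WT cells (2 libraries). All were untreated as far as the labels say. The product of APEX1 is APE1, which cuts DNA at abasic sites during base excision repair and also keeps some transcription factors reduced, and the study's title joins it to urea cycle genes and G-quadruplexes. The labels do not give how the knockout was made, nor whether the libraries of a group came from 1 clone or several, so a p-value here speaks of the scatter of the libraries at hand, and that scatter may be technical. The 3 A549 columns 65, 16 and 66 have names without a genotype and were placed in KO by elimination, as every other A549 column is labelled WT.

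A dividing cell makes most of these mRNAs late in its cycle, in the G2 phase and mitosis, and destroys many of their proteins as mitosis ends. Their genes are read little in cells that have left the cycle, where the DREAM repressor complex, built on the pocket proteins p130 and p107 with E2F4 and the MuvB core (LIN9, LIN37, LIN52, LIN54 and RBBP4), sits at short promoter letters called the cell cycle homology region (CHR). In cycling cells the MuvB core instead binds B-MYB and FOXM1 and turns the same genes on, together with the factor NF-Y at CCAAT boxes. The cyclin-dependent kinase inhibitor p21, encoded by CDKN1A, favours the repressor form. In bulk RNA fewer dividing cells and less of an mRNA per dividing cell cannot be told apart, and that holds for every value below.

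Libraries held 18314224 to 30219850 counts. Levels are CPM, counts scaled to a common library size by the trimmed mean of M-values (TMM) within each line. APEX1 mRNA was lower in every KO library of both lines, at 62.9, 60.1 and 108 CPM in A549 KO 65, 16 and 66 against 167, 254 and 237 CPM in A549 WT 1, 2 and 3, and at 87.0 and 87.6 CPM in H1944 KO 1 and 2 against 244 and 243 CPM in H1944 WT 1 and 2. In A549, genotype was crossed by a split into 2 sets of libraries: the ribosomal RNA gene RNA28SN4 reached 304 and 264 CPM in KO 65 and WT 1, and KO 16, KO 66, WT 2 and WT 3 had 0 counts of this gene, while the H1944 libraries had 133 to 326 CPM. The typical spread between libraries of a group (biological coefficient of variation) was 39.0% in A549 and 4.74% in H1944. A549 values are therefore also given within the sets, where KO 65 is compared with WT 1, and each of KO 16 and KO 66 with the mean of WT 2 and WT 3. The 7 epithelial markers summed to 11461 to 25613 CPM in A549 KO and 10611 to 25615 CPM in A549 WT. In H1944 they summed to 17500 to 17898 CPM in KO and 9788 to 9942 CPM in WT. Most of each sum was KRT8 and KRT18, so it does not show how the other markers moved. NKX2-1, a lung adenocarcinoma marker, had 0 counts in every H1944 library, and 2 and 5 counts in all in A549 KO and WT. The leukocyte, fibroblast and endothelial lists summed to at most 54.4, 16.9 and 2.44 CPM in any library, and CD3E and KDR had 0 counts in all of them. Nearly all of the leukocyte sum was CD68.

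What these genes share in their promoters is shown first. RefSeq windows (GRCh38.p14) of 250 bases before to 50 after the start matched 29 of the 35 genes. CHR letters (TTTGAA or TTCGAA, on either strand) were in 22 of 29, 75.9% with a 95% exact binomial interval of 56.5 to 89.7%, against 19.5% of the 27305 symbols with a window. CCAAT letters were in 24 of 29 (82.8%, 64.2 to 94.2%), against 39.7% of all, and both were in 19 of 29 (65.5%, 45.7 to 82.1%), against 7.85% of all. E2F letters (TTTCCCGC, TTTCGCGC, TTTGCCGC or TTTGGCGC) were in 3 of 29 (10.3%, 2.19 to 27.4%), against 3.99% of all. Letters of a G-quadruplex, 4 runs of at least GGG with 1 to 7 bases between, were in 5 of 29 (17.2%, 5.85 to 35.8%), against 27.9% of all symbols. Since the study's title names G-quadruplexes, that share is given although it lies below that of all symbols, which is within its interval. In the 250 bases before the start alone, CHR letters were in 17 of 29 genes (58.6%), against 17.2% of all symbols. Both CHR and CCAAT letters were there in 16 of 29 (55.2%), against 6.24% of all. Such letters describe the sequence and do not show that a factor binds there. The stretches below are the last 120 bases before the RefSeq start that touch no GENCODE exon. They belong to ASPM, MKI67, KIF11 and TOP2A, the 4 of the 10 genes that fell at least 2-fold in H1944 KO cells whose windows hold CHR and CCAAT letters before the start, and to CDC20, the one gene that did not pass the test there. Capitals mark CHR letters (TTTGAA, or TTCAAA when read on the other strand) and CCAAT letters (CCAAT, or ATTGG on the other strand), and all are written 5′ to 3′ on the gene's strand.
ASPM (chr1:197146695-197146814, minus strand): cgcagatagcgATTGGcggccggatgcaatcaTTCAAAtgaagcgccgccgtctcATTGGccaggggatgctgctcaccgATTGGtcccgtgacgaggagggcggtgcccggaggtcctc
MKI67 (chr10:128126424-128126543, minus strand): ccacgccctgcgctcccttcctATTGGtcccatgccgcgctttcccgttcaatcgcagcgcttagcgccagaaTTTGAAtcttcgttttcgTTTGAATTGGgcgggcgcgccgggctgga
KIF11 (chr10:92593010-92593129, plus strand): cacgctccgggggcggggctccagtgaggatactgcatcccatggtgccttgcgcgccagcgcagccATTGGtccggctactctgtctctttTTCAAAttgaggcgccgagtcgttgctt
TOP2A (chr17:40417951-40418070, minus strand): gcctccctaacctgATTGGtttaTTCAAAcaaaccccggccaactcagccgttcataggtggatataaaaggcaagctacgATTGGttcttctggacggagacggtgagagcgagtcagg
CDC20 (chr1:43358835-43358954, plus strand): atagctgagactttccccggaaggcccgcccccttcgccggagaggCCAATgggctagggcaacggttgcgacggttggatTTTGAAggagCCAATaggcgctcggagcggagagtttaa
In MKI67 a CHR and a CCAAT stretch share a base. The 4 genes were picked for holding both kinds of letters, and the stretch of CDC20 holds both as well. Of the other genes that fell at least 2-fold, CENPF and NUSAP1 hold CCAAT letters before the start and CHR letters after it, NUF2 has CHR letters alone, KIF20A has CCAAT letters alone, CENPE has neither, and TTK was not matched to a window.

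In H1944 cells nearly the whole set fell with APEX1 knockout. Of the 35 genes, 34 passed the test as lower in KO than in WT cells (edgeR quasi-likelihood test, Benjamini-Hochberg adjusted p under 0.05 over 16626 genes) and none as higher, while over all genes tested 33.9% were called lower and 33.2% higher. All 35 were lower in both KO libraries than in both WT libraries, against 41.4% of all genes, and none was higher in both, where 41.1% of all genes were. The median log2 fold change (KO over WT) of the 35 was -0.79, from -1.88 for ASPM to -0.09 for CDC20, beside -0.01 over all genes. A fall of at least 2-fold was called for 10 genes, in a line where 11.3% of all genes had one. The 2 KO libraries gave medians of -0.87 and -0.79 against the WT mean. With 2 libraries against 2, an exact permutation test of a single gene cannot go below p = 0.333, so the calls rest on the fit over all genes. When the spread was estimated over all 10 libraries, 16 of the 35 genes were called lower, against 7.61% of all genes.

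In A549 cells no member passed. Of 15806 genes tested there, edgeR called 0% lower and 0.00633% higher, which is 1 gene. In this fit, which had no term for the sets, 895 genes (5.66%) had an unadjusted p under 0.05, 1 of them a member. More members had one with such a term, but no share over all genes is at hand to set beside them. DESeq2 called 42 genes lower (0.21%) and 84 higher (0.42%), with no member among them. The fitted log2 fold change was below 0 for 34 of the 35 genes, against 47.8% of all genes, with a median of -0.25 beside 0.02 over all genes. Members lower in each KO library than in each WT library were NUSAP1, CENPA and NUF2, 3 of 35 where 4.60% of all genes were, and none was higher in each, where 6.11% were.

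**Figure D1:**
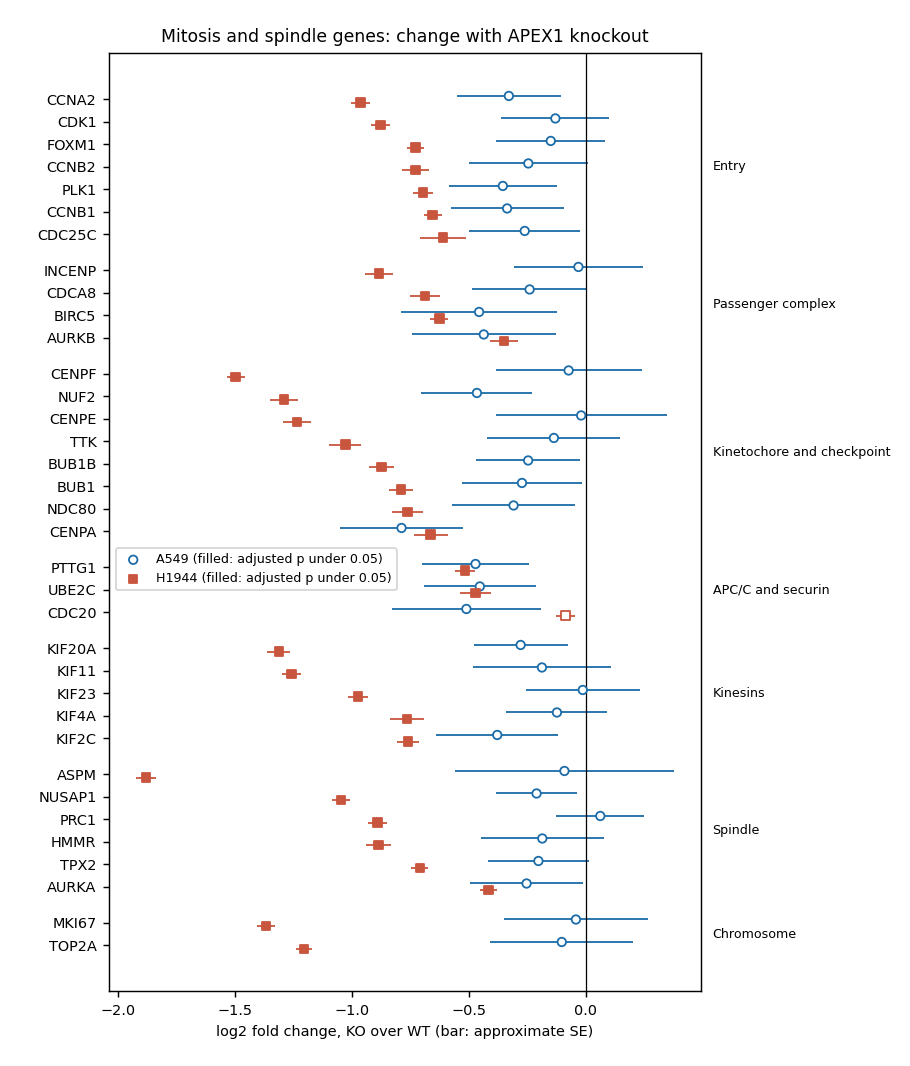
Log2 fold change (x axis, KO over WT) of each of the 35 genes (y axis, grouped by role), with a bar of 1 approximate standard error (SE). H1944 squares lie from -1.88 to -0.09 and 34 are filled, which marks an adjusted p under 0.05; A549 circles lie from -0.79 to 0.06 and none is filled.

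Genes of mitotic entry fell together in H1944 KO cells, with 7 of 7 called lower, against 33.9% of all genes, and a median log2 fold change of -0.73. CCNA2, cyclin A2 of S phase and G2 (chromosome 4, 121816444 to 121823933, hg38), had 74.2 and 73.0 CPM in KO 1 and 2 against 140 and 148 CPM in WT 1 and 2. The KO libraries lay well below the WT libraries, a log2 fold change of -0.96 (SE 0.04, edgeR adjusted p 9.38e-15). The SE is an approximation, the size of the log2 fold change divided by the root of its F statistic. CDK1, the kinase that starts mitosis (chromosome 10, 60778331 to 60794852), had 97.0 and 103 CPM in KO against 181 and 187 CPM in WT, a log2 fold change of -0.88 (SE 0.04, edgeR adjusted p 2.48e-14). Its partners CCNB1 and CCNB2, the mitotic B cyclins, had log2 fold changes of -0.65 and -0.73, and the kinase PLK1 and the transcription factor FOXM1 -0.70 and -0.73. The smallest fall of the group was that of the CDK1-activating phosphatase CDC25C, -0.61. In A549 all 7 fitted values, from -0.35 to -0.13, were below 0, as were 47.8% of all genes, and none passed. PLK1 there had 142, 185 and 201 CPM in KO 65, 16 and 66 against 172, 252 and 251 CPM in WT 1, 2 and 3, so the groups overlapped through the low WT 1. Within the sets its log2 values were -0.28, -0.44 and -0.32 for KO 65, 16 and 66. CCNA2 had 70.1, 111 and 73.4 CPM in KO against 110, 107 and 104 CPM in WT, where KO 16 stood with the WT libraries.

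The chromosomal passenger complex corrects faulty attachments of chromosomes and later organises cytokinesis. Its 4 genes were all called lower in H1944 KO cells, against 33.9% of all genes, with a median log2 fold change of -0.66. BIRC5, which encodes survivin (chromosome 17, 78214186 to 78225636), had 115 and 117 CPM in KO against 176 and 182 CPM in WT, a log2 fold change of -0.63 (SE 0.04, edgeR adjusted p 3.38e-12). INCENP, the scaffold of the complex, had 31.2 and 30.9 CPM in KO against 57.4 and 57.2 CPM in WT, a log2 fold change of -0.88 with an adjusted p of 1.55e-11 by edgeR. CDCA8, which encodes borealin, was at -0.69, and the kinase gene AURKB fell least, by 0.35 on the log2 scale (edgeR adjusted p 3.19e-05). A549 gave values of the same sign without a call, from -0.46 for BIRC5 to -0.03 for INCENP. BIRC5 had 152, 226 and 276 CPM in A549 KO against 184, 363 and 351 CPM in WT, and AURKB had 67.7, 90.4 and 115 CPM in KO against 79.5, 144 and 147 CPM in WT. For both genes WT 1 was far below WT 2 and WT 3, so KO 16 and KO 66 lay above WT 1 and below WT 2 and WT 3. Within the sets BIRC5 was at -0.28, -0.66 and -0.37, and AURKB at -0.23, -0.68 and -0.33, for KO 65, 16 and 66.

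Kinetochore and spindle checkpoint genes held 4 of the 10 falls of at least 2-fold in H1944 KO cells. Of this group 8 of 8 were called lower, against 33.9% of all genes, with a median of -0.95. CENPF, a large coiled-coil protein of the outer kinetochore (chromosome 1, 214603195 to 214664588), had 81.9 and 85.3 CPM in KO against 234 and 239 CPM in WT, a log2 fold change of -1.50 (SE 0.04, edgeR adjusted p 1.05e-18). NUF2, a subunit of the NDC80 complex that grips microtubules (chromosome 1, 163266576 to 163355764), had 36.9 and 34.7 CPM in KO against 82.5 and 92.6 CPM in WT, a log2 fold change of -1.29 with an adjusted p of 4.24e-14 by edgeR. CENPE, a kinetochore motor, was at -1.23 and the checkpoint kinase gene TTK at -1.03. The checkpoint genes BUB1B and BUB1 were at -0.87 and -0.79, NDC80 at -0.76, and CENPA, the histone variant that marks centromeres, at -0.66. In A549 this group held the largest member value. CENPA (chromosome 2, 26764289 to 26801067) had 22.4, 36.8 and 30.5 CPM in KO 65, 16 and 66 against 39.2, 57.9 and 57.9 CPM in WT 1, 2 and 3. The groups did not overlap, but the log2 fold change of -0.79 (SE 0.26) missed the threshold (edgeR adjusted p 0.789), and the exact 2-sided permutation p was 0.1, the smallest that 3 libraries against 3 allow. Within the sets CENPA was at -0.80, -0.65 and -0.92, the same direction in each KO library. NUF2 had 26.0, 45.1 and 33.0 CPM in A549 KO against 45.7, 46.6 and 51.4 CPM in WT, apart by a narrow margin at KO 16. CENPF, CENPE and TTK had A549 values of -0.07, -0.02 and -0.14.

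The anaphase-promoting complex ends mitosis by marking securin and the B cyclins for destruction. Of 3 genes of this group, 2 were called lower in H1944 KO cells, where 33.9% of all genes were. Their median of -0.47 was the smallest fall of the role groups, and 3 genes are too few to judge a share. PTTG1, securin, which holds back separase until anaphase (chromosome 5, 160421822 to 160428744), had 82.0 and 80.3 CPM in KO against 114 and 119 CPM in WT, a log2 fold change of -0.52 (SE 0.04, edgeR adjusted p 3.72e-10). UBE2C, the ubiquitin-conjugating enzyme of the complex, fell by 0.47 on the log2 scale (edgeR adjusted p 1.81e-06). CDC20, the activator of the complex (chromosome 1, 43358955 to 43363203), had 146 and 138 CPM in KO against 154 and 148 CPM in WT. Its KO libraries were both below its WT libraries, by a log2 fold change of -0.09 with an edgeR adjusted p of 0.0676. It was called lower when replicate numbers were a block (adjusted p 0.0318), without WT 2 (0.0153) and after a length trend was removed (0.00014), while DESeq2 gave an adjusted p of 0.246. In A549 the same 3 genes lay among the lower members, at -0.51 for CDC20, -0.47 for PTTG1 and -0.45 for UBE2C. PTTG1 had 76.8, 88.0 and 111 CPM in A549 KO against 98.7, 142 and 141 CPM in WT. CDC20 had 88.2, 141 and 141 CPM in A549 KO against 110, 211 and 207 CPM in WT, overlapping through WT 1, and was at -0.31, -0.57 and -0.56 within the sets.

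Mitotic kinesins, motors that push spindle poles apart, move chromosomes and build the midzone, fell in H1944 KO cells, with a median of -0.97. Of these, 5 of 5 were called lower, against 33.9% of all genes. KIF20A, a motor of cytokinesis (chromosome 5, 138178719 to 138187715), had 38.3 and 39.6 CPM in KO against 96.5 and 97.1 CPM in WT, a log2 fold change of -1.31 (SE 0.05, edgeR adjusted p 6.11e-16). KIF11, the motor that separates the poles (chromosome 10, 92593286 to 92655395), had 57.2 and 58.3 CPM in KO against 138 and 139 CPM in WT, a log2 fold change of -1.26 with an adjusted p of 6.11e-17 by edgeR. KIF23, of the central spindle, was at -0.97, and the chromosome motor KIF4A and the microtubule depolymerase KIF2C were both at -0.76. In A549 these 5 genes ranged from -0.38 to -0.01 with no call. KIF2C had 48.0, 78.5 and 73.0 CPM in A549 KO against 66, 95 and 98.3 CPM in WT, and KIF20A had 67.5, 102 and 81.1 CPM in KO against 97.3, 102 and 104 CPM in WT. KO 16 was the highest of the KO libraries for both.

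Genes of spindle assembly and poles were called lower in 6 of 6 cases in H1944, against 33.9% of all genes, with a median of -0.89. ASPM, a spindle pole protein known for its part in primary microcephaly (chromosome 1, 197084128 to 197146694), fell most of all members: it had 44.4 and 44.9 CPM in KO against 166 and 164 CPM in WT, a log2 fold change of -1.88 (SE 0.04, edgeR adjusted p 6.22e-20). NUSAP1, which bundles microtubules near chromosomes (chromosome 15, 41332694 to 41381050), had 102 and 106 CPM in KO against 210 and 218 CPM in WT, a log2 fold change of -1.05 with an adjusted p of 6.75e-16 by edgeR. The midzone bundler PRC1 and the spindle protein HMMR were both at -0.89, TPX2, an activator of Aurora A, at -0.71, and AURKA, which encodes Aurora A, at -0.42. In A549, ASPM had 101, 152 and 54.9 CPM in KO 65, 16 and 66 against 175, 77.9 and 75.5 CPM in WT 1, 2 and 3. The libraries of both genotypes were spread over the same range, and the log2 fold change of -0.09 had an SE of 0.47. NUSAP1 had 103, 135 and 124 CPM in A549 KO against 136, 139 and 143 CPM in WT, apart by a narrow margin, at -0.21. AURKA had 93.9, 160 and 112 CPM in A549 KO against 125, 154 and 157 CPM in WT, where KO 16 was highest of all 6 libraries. PRC1 was the one member above 0 in A549, at 0.06, with 233, 314 and 227 CPM in KO against 241, 250 and 250 CPM in WT.

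The genes of 2 abundant chromosome proteins, both used as markers of proliferation, fell by more than 2-fold in H1944. MKI67, the Ki-67 antigen that coats mitotic chromosomes (chromosome 10, 128096659 to 128126385), had 106 and 107 CPM in KO against 282 and 268 CPM in WT, a log2 fold change of -1.37 (SE 0.04, edgeR adjusted p 4.07e-18). TOP2A, the topoisomerase that untangles sister chromatids (chromosome 17, 40388516 to 40417950), had 152 and 151 CPM in KO against 345 and 354 CPM in WT, a log2 fold change of -1.20 with an adjusted p of 7.89e-18 by edgeR. In A549, TOP2A had 469, 771 and 407 CPM in KO 65, 16 and 66 against 755, 511 and 501 CPM in WT 1, 2 and 3, and MKI67 had 300.2, 655 and 409 CPM in KO against 552, 420 and 433 CPM in WT. KO 16 was the highest library for both genes and WT 1 the next, so neither genotype stood above the other.

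**Figure D2:**
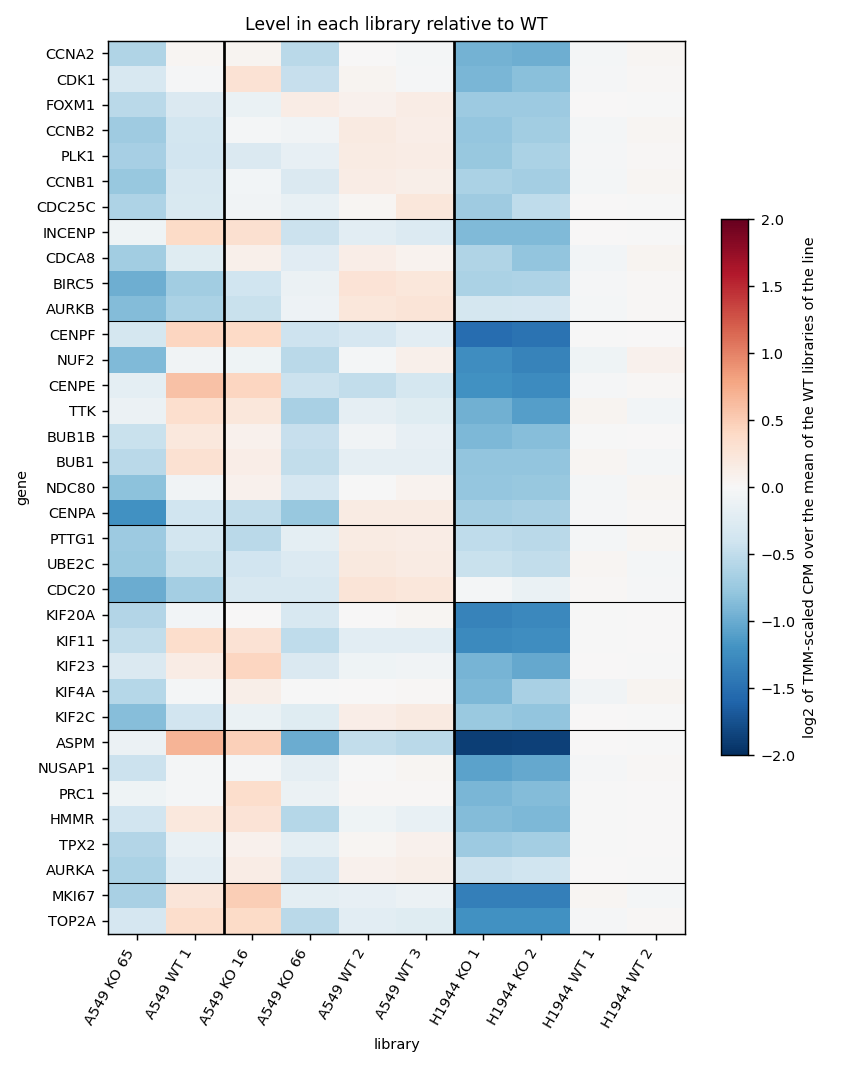
Level of each gene (y axis, in the role order of the plot of fold changes) in each of the 10 libraries (x axis), as log2 of CPM over the mean of the WT libraries of the line. A549 KO 65 with WT 1 form the first block and the other A549 libraries the second. All 35 genes are below 0 in both H1944 KO libraries and in A549 KO 65, 34 in KO 66 and 14 in KO 16. Of all genes, 48.3 to 52.0% are below 0 in these KO libraries.

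The 3 A549 KO libraries did not behave alike over the set. Against WT of their own set, the median log2 value of the 35 genes was -0.46 in KO 65, with 35 below 0, 0.04 in KO 16, with 16 below 0, and -0.34 in KO 66, with 34 below 0. The same medians over all genes were -0.03, 0.05 and 0.00, with 52.9%, 47.4% and 49.7% of all genes below 0. All 3 KO libraries were below WT of their set for 15 of the 35 genes, against 16.9% of all genes. KO 16 also had the highest share of ribosomal RNA counts, 14.2%, against 0.337% in KO 65, 7.18% in KO 66, 0.284% in WT 1, 6.45% in WT 2 and 6.46% in WT 3, and the part of this in its values was not tested. Without KO 16 the fitted median of the set was -0.44, with 35 genes below 0, and without KO 65 it was -0.11, with 28 below 0, and none was called either way. The 2 sets also differed within a genotype: WT 1 minus the mean of WT 2 and WT 3 was 1.19 for ASPM and 1.01 for CENPE, but -0.95 for BIRC5 and -0.93 for CDC20. Beyond the 35 members, larger gaps between the sets were found for 3 other mitosis genes. KIFC1, a kinesin of the spindle, had 1.51 CPM in KO 65 and 60.8 and 61.2 CPM in KO 16 and KO 66, against 7.23 CPM in WT 1 and 78.4 and 78.0 CPM in WT 2 and WT 3. SKA1 and SPC25, both of the kinetochore, were lower in WT 1 than in WT 2 and WT 3 by log2 values of -3.73 and -3.34. In H1944 libraries KIFC1 had 0.599 to 1.43 CPM, SKA1 0.369 to 5.10 CPM and SPC25 2.22 to 7.49 CPM, nearer to KO 65 and WT 1 than to the other A549 libraries. Whether the sets were prepared or counted in different ways is not given in the sources used here, so that A549 values across sets, and differences between lines, may hold such a difference, and its part was not tested.

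Whether the genes responded differently in the 2 lines was tested directly, as the A549 change minus the H1944 change in 1 fit of 10 libraries. For each gene the fit took the same spread in both lines, although the typical spread was 39.0% in A549 and 4.74% in H1944. What this did to the p-values was not tested. Of the 35 genes, 3 passed, each with a difference above 0. Over all 17677 genes tested, 4.10% were called in that direction and 2.85% in the other. KIF20A and NUSAP1 had a smaller fall in A549 than in H1944, and PRC1 was above 0 in A549, at 0.06. KIF20A had a difference of 1.00 (log2, SE 0.24, edgeR adjusted p 0.0401), PRC1 one of 0.92 (SE 0.22, edgeR adjusted p 0.0424) and NUSAP1 one of 0.81 (SE 0.20, edgeR adjusted p 0.0469), a call that was lost with RLE scaling (edgeR adjusted p 0.0528). The median difference of the 35 was 0.60, beside 0.00 over all genes, and 31 were above 0, as were 8834 of the 17677 genes tested. ASPM had the widest difference, 1.77 (SE 0.61, edgeR adjusted p 0.132), which did not pass. Some other fits of the same libraries passed more members, each again with a difference above 0. The share of all genes called in that direction was higher there too, at 6.72% by DESeq2 and 8.6% with a term for the A549 set. DESeq2 also called MKI67 (adjusted p 0.0261), CENPF (0.0148) and ASPM (0.0428), and a fit with a term for the A549 set also called CENPF (edgeR adjusted p 0.037) and ASPM (0.0495).

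Transcript length ran with the response, in opposite senses in the 2 lines. Length here is the union of a gene's exons in GENCODE 29. The 4 longest members, MKI67, CENPF, ASPM and CENPE, each over 9000 bases, had a median log2 fold change of -1.43 in H1944, and the 11 members of up to 3000 bases one of -0.65. Over all genes of the same lengths the medians were -0.12 and 0.09. Over the 35 genes Spearman's rho of log2 fold change with length was -0.72 in H1944 and 0.77 in A549, against -0.09 and 0.21 over all genes. Genes are not independent replicates, and all points of a line share its libraries. In A549 the 4 longest members had a median of -0.06 and the 11 shortest one of -0.34, beside 0.13 and -0.10 over all genes of those lengths. The contrast of A549 libraries of 1 genotype, WT 1 minus WT 2 and WT 3, gave a rho of 0.74 over the 35 genes and 0.40 over all genes. The value was -0.37 over the 35 genes for KO 65, 0.78 for KO 16 and 0.54 for KO 66, each within its set, so the sense of the relation differed between KO libraries. After the trend with length over all genes was removed, all 35 members were called lower in H1944, where 33.7% of all genes were, with a median of -0.82 and a rho of -0.58; in A549 none was called, with a median of -0.20 and a rho of 0.44.

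**Figure D3:**
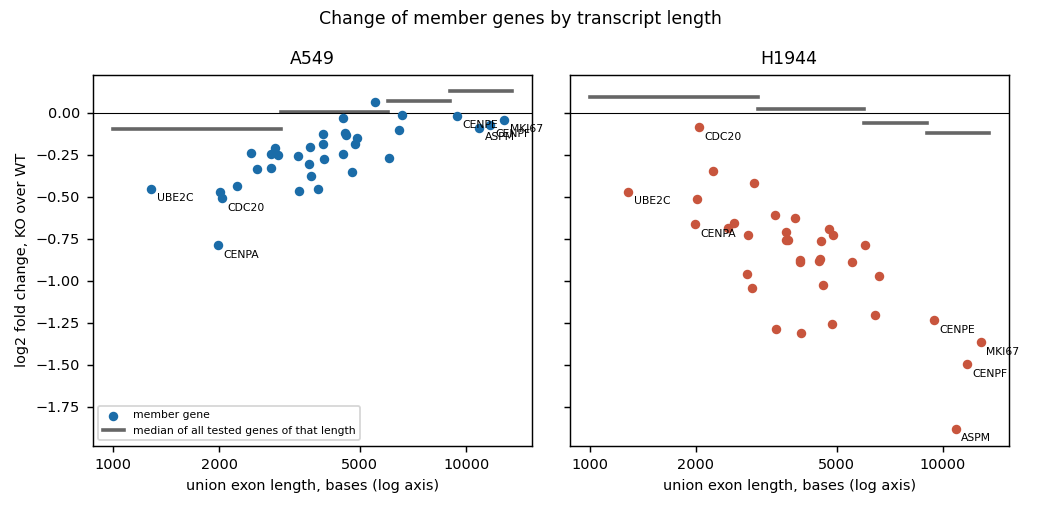
Log2 fold change (y axis, KO over WT) of each of the 35 genes against exon length in bases (x axis, log scale) in A549 (left) and H1944 (right), with grey lines for the median of all tested genes of that length. In H1944 the 4 genes over 9000 bases lie from -1.88 to -1.23, below the genes of up to 3000 bases at -1.05 to -0.09; in A549 the 4 longest lie from -0.09 to -0.02.

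Per kilobase of exon, CCNB1 was among the 2 most abundant members in each group, at 50.8 CPM per kb in H1944 KO and 80.0 in H1944 WT, and at 79.9 CPM per kb in A549 KO and 101 in A549 WT. CDC20 stood above it in H1944 KO, at 69.8 CPM per kb, and TOP2A in A549 KO, at 85.3 CPM per kb. CDC25C and CENPE were among the 3 lowest in each group, with CENPE at 2.84 CPM per kb in H1944 KO and 6.68 in H1944 WT. All 35 passed the filter on low counts in both lines. Mean levels ran from 13.4 to 151 CPM in H1944 KO and from 20.4 to 349 CPM in H1944 WT.

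Other genes of mitosis fell in H1944 KO cells as well. Of 101 tested genes outside the 35 (checkpoint, kinetochore, condensin, cohesin, anaphase-promoting complex, kinesins, centrosome, cytokinesis and entry), 85 were called lower and 7 higher, where 33.9% and 33.2% of all genes were, with a median of -0.62. The 3 with the smallest adjusted p were STAG2, a cohesin subunit, at -2.25 (edgeR adjusted p 6.64e-20), ANLN, anillin of the cleavage furrow, at -1.58 (edgeR adjusted p 3.82e-19) and KNTC1, of the checkpoint, at -1.73 (edgeR adjusted p 2.73e-18). All 11 genes of cohesin and separase, all 9 of the centrosome and all 7 other kinesins were called lower. Of the 15 genes listed for the anaphase-promoting complex and its partners, 7 were called lower and 5 higher, with a median of -0.14. Over all genes the shares were 33.9% and 33.2%. The largest fall of this list, -0.81, was that of FBXO5, which is not a subunit of the complex. The subunit ANAPC13 rose by 0.54 and the ubiquitin-conjugating enzyme UBE2S of the complex by 0.21, while CDC25B, a CDK1-activating phosphatase, rose by 0.80. In A549 none of the 101 was called, with 82 below 0, as were 47.8% of all genes, and a median of -0.13.

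Genes of the preceding phase were lower as well. Of 35 genes of G1/S and DNA replication, 33 were called lower in H1944 KO cells, among them the replicative helicase genes MCM4 (-1.12) and MCM7 (-1.10) and the ribonucleotide reductase gene RRM2 (-0.87), with a median of -0.63 for the list, in a line where 33.9% of all genes were called lower. CCNE1, cyclin E1, which drives entry into S phase, was called higher, at 0.74, and E2F1 was not called, at -0.07. In A549 none passed, with 32 of 35 below 0, against 47.8% of all genes, and a median of -0.19. RRM2 had a mean of 152 ± 41.2 CPM in A549 KO and 251 ± 16.8 CPM in A549 WT (SD, n = 3 each), with groups that did not overlap.

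Of 14 known regulators of these promoters, 8 were called lower and 2 higher in H1944 KO cells, where 33.9% and 33.2% of all genes were. CDKN1A, which encodes p21, had 730 and 719 CPM in KO against 103 and 97.0 CPM in WT, a log2 fold change of 2.86 (SE 0.04, edgeR adjusted p 7.91e-24). E2F4, the DREAM subunit, rose by 0.70. RBL1 and RBL2, which encode p107 and p130, fell by 1.00 and 0.34, and the activator gene MYBL2 by 0.62. Of the MuvB core, LIN9 was at -1.03, LIN54 at -0.78, LIN52 at -0.40 and RBBP4 at -0.08, all called lower, and LIN37 was at 0.32 and not called (edgeR adjusted p 0.053). In A549, CDKN1A had 332, 171 and 240 CPM in KO 65, 16 and 66 against 84.9, 105 and 101 CPM in WT 1, 2 and 3. Every KO library was above every WT library, with a log2 fold change of 1.36 (SE 0.27, edgeR adjusted p 0.521, and 0.00862 by DESeq2). Within the sets it was at 1.97 in KO 65, 0.73 in KO 16 and 1.23 in KO 66. The CDKN1A change differed between lines, by -1.53 (A549 minus H1944, edgeR adjusted p 0.0452).

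**Figure D4:**
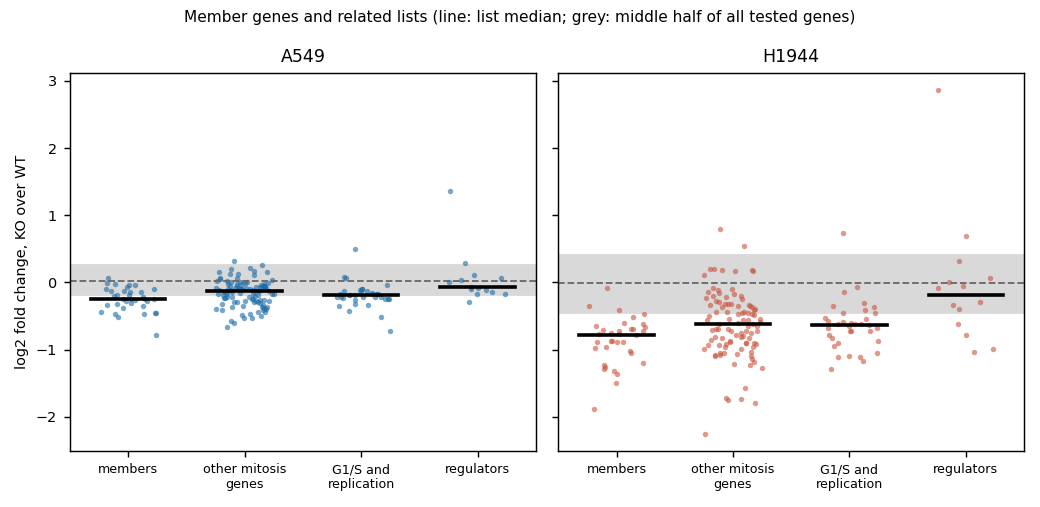
Log2 fold change (y axis, KO over WT) of each gene of 4 lists (x axis: the 35 members, other mitosis genes, G1/S and replication genes, and regulators) in A549 (left) and H1944 (right). Black lines are list medians (-0.79, -0.62, -0.63 and -0.19 in H1944), the dashed line is the median of all genes, grey marks the middle 50% of all genes, and the highest point is CDKN1A.

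Members with and without CHR letters overlapped in their response. Only TTTGAA and TTCGAA were searched and no other form of the region, so a gene without them may still have one. In H1944 the 22 genes with CHR letters had a median log2 fold change of -0.88 and the 7 without them (AURKB, CCNA2, CCNB1, CENPE, KIF20A, KIF2C and PTTG1) one of -0.76, with ranges of -1.88 to -0.09 and -1.31 to -0.35 that overlapped. In A549 the medians were -0.20 with and -0.34 without. AURKA, FOXM1, TPX2, BIRC5, TTK and UBE2C were not matched to a window.

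Epithelial marker genes moved with the H1944 knockout too. Of the 6 tested, 3 were called lower and 2 higher, where 33.9% and 33.2% of all genes were. EPCAM, an epithelial adhesion molecule, had a mean of 0.949 ± 0.252 CPM in KO and 70.2 ± 1.89 CPM in WT, and CDH1, E-cadherin, 8.02 ± 0.280 CPM in KO and 211 ± 0.432 CPM in WT (SD, n = 2 each), while KRT8 and KRT18 were higher in KO. Their part in the fall of the mitosis genes was not tested.

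Some values may hold reads of neighbouring genes, since the strand used in counting is not given in the sources used here. PRC1 shares 22280 bases with PRC1-AS1 on the opposite strand, which was also called lower in H1944 (32.5 ± 0.326 CPM in KO and 52.5 ± 0.336 CPM in WT, SD, n = 2 each, log2 fold change -0.69), and HMMR shares 8881 bases with HMMR-AS1, also called lower (6.92 ± 0.0708 CPM in KO and 13.9 ± 0.803 CPM in WT, SD, n = 2 each). NUF2, CDC25C, FOXM1, CCNA2, KIF20A, KIF4A and PLK1 overlap other genes on the opposite strand, and CENPA and BUB1B on the same strand. Near-identical copies took few reads: KIF4B had at most 20 counts in any group and PTTG2 at most 1.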

How the data were processed

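Poly(A) RNA of A549 and H1944 cells was sequenced in 10 libraries, 150-base paired reads per the labels. Per the submitters' processing notes, the tools were Trim Galore 0.5.0, HISAT2 2.1.0, featureCounts 1.6.4 and DESeq2, with hg38. The authors deposited raw counts, with no normalization, in 1 table per line, each with 28281 gene symbols. Strand, annotation and the handling of reads with several alignments are not given in the sources used here, which matters for overlapping and near-identical genes. Totals per library were 19578197, 23316585 and 23336357 in A549 KO 65, 16 and 66, 18314224, 24358934 and 23589799 in A549 WT 1, 2 and 3, 28950423 and 30219850 in H1944 KO 1 and 2, and 22144904 and 20754740 in H1944 WT 1 and 2.

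Genes were kept by filterByExpr (minimum count 10), scaled by TMM and compared per line in edgeR 4.0.16 (R 4.3.3), by its quasi-likelihood test with the robust option, with Benjamini-Hochberg adjustment over all genes kept and a threshold of 0.05. The difference between lines came from 1 fit of all 10 libraries. Single A549 genes also had 2-sided exact permutation tests. Within-set values are log2 ratios of CPM with a prior count of 0.5. The alternatives were RLE scaling, no filter, DESeq2 1.42.0, 1 fit of all libraries, each library left out, a term for the A549 set, the larger set alone and a replicate block, and, added after seeing the data, removal of a trend with exon length (lowess span 0.5; 25526 symbols had a GENCODE 29 length).

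The 35 members and the lists beside them were chosen with earlier results of these data known, so no p is adjusted over a list. Of the regulators listed, 1 gene is not reported here. All members are named, with values per library for 1 or 2 in each role group and line that had the smallest adjusted p and for a few others; of other lists up to 3 called genes in each direction and known regulators are named. PRC1, ASPM in A549, KIFC1, SKA1, SPC25, LIN37, LIN52, E2F1, EPCAM, CDH1, KRT8, KRT18 and some of the library values were added after values were seen. The closest pair of libraries, A549 WT 2 and WT 3, had a chi-square of 1.90 per gene, more than counting noise gives.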

Additional observations from a re-analysis of the deposited data

Results flagged for a closer look

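The response to the knockout differed between the lines for 3 members, by a test of the difference itself (A549 change minus H1944 change, log2, edgeR over 17677 genes). It was 1.00 for KIF20A (-0.28 in A549 and -1.31 in H1944), 0.92 for PRC1 (0.06 and -0.89) and 0.81 for NUSAP1 (-0.21 and -1.05), and in each case the fall in H1944 was called and the A549 value was not. The NUSAP1 call was lost with RLE scaling (edgeR adjusted p 0.0528). For each gene this test took the same spread in both lines, although the typical spread was 39.0% in A549 and 4.74% in H1944. Among the other genes named, the same test passed for STAG2 (2.26, adjusted p 0.0475 by edgeR), KNTC1 (1.6, edgeR adjusted p 0.0214) and CDKN1A (-1.53, edgeR adjusted p 0.0452). It also passed for CDH1 (5.40, edgeR adjusted p 3.07e-04) and EPCAM (7.66, edgeR adjusted p 3.98e-04). Of the 101 other mitosis genes tested, 5 passed with a difference above 0, near the 4.10% of all genes that did.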

How the results depend on the processing

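In H1944 every member kept its direction under each alternative run. The fit of all 10 libraries called 16 members lower, with 1345 genes lower and 1177 higher in all; elsewhere 34 or 35 members were called. Leaving out single H1944 libraries gave a member median of -0.87 to -0.78. The replicate numbers did not pair the H1944 libraries (correlation of deviations 0.00766 over 16626 genes); with the replicate block 35 members were called lower and 0 higher, and 5660 genes lower and 5568 higher, with a median of -0.79. No paired analysis was possible because of unmatched numbers in A549, where KO and WT columns share none.

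In A549 no alternative called a member. Genes called lower were 42 by DESeq2, 6 in the fit of all libraries and 1 with a set term, and genes called higher 2 without the filter, 84 by DESeq2, 10 in the fit of all libraries, 0 in the larger set, 2 with length trend and set together, and 0 to 0 without single libraries. Values turned above 0 in the larger set for MKI67 (0.27), TOP2A (0.17), KIF11 (0.11), KIF23 (0.14), CENPE (0.43), CENPF (0.27), TTK (0.0106), ASPM (0.39) and INCENP (0.18), and with a set term for CENPE (0.0639), ASPM (0.0298) and INCENP (0.000188). Without single A549 libraries the ranges were -0.40 to 0.18 for MKI67, -0.43 to 0.12 for TOP2A, -0.34 to 0.0103 for FOXM1, -0.50 to 0.0286 for KIF11, -0.29 to 0.11 for KIF23, -0.26 to 0.0542 for KIF4A, -0.31 to 0.40 for CENPE, -0.39 to 0.20 for CENPF, -0.36 to 0.0695 for TTK, -0.11 to 0.13 for PRC1, -0.49 to 0.42 for ASPM and -0.25 to 0.21 for INCENP. The member median ran from -0.44 to -0.11.

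Between lines, DESeq2 called 6 members, 1008 genes lower and 1229 higher, and a set term 5 members, 1239 genes lower and 1520 higher; RLE scaling called 2, without NUSAP1. The sign turned for UBE2C with a set term (0.00764) and, with the length trend removed, for AURKB (0.0871), CENPA (0.0726) and UBE2C (0.18). The cause was not tested. Precision is limited by 2 or 3 libraries a group and, in A549, by 39.0% spread between them.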
